A study of Mus musculus with 12 samples.

Results

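Transcripts of 10 genes that mark astrocytes or their reactive state, of 27833 genes listed, were followed in hippocampal RNA of naturally aged mice. The genes were chosen by name: Slc1a2, Slc1a3, Gja1, Aqp4, Aldh1l1, Sox9 and S100b for astrocyte identity, and Gfap, Vim and Serpina3n for reactivity. Wild-type male C57BL/6J mice aged 20 months received normal saline (CON, 3 libraries), pyrroloquinoline quinone (PQQ) at 5 mg/kg/day (PQQ-L, 5 libraries) or PQQ at 10 mg/kg/day (PQQ-H, 4 libraries) by oral gavage for 14 days, so all groups share the age, the strain and the gavage. PQQ is a redox-active quinone taken as a dietary supplement. Whole hippocampal tissue was sequenced, so a lower value of a gene can come from fewer cells that express it or from less RNA per cell, and these cannot be told apart. Levels are given in FPKM, in which the fragments of a gene are divided by its length in kilobases and by the library total. Genes can be compared within a library on this scale. Between libraries, FPKM of a gene also depends on what other RNA each library holds, so other scalings were among the alternatives. A gene was called where a limma fit of log2(FPKM + 0.1) gave an absolute log2 fold change of more than 1 together with a p, adjusted by Benjamini-Hochberg, of less than 0.05. The fit covered the 13796 genes averaging 0.5 FPKM or more. All 10 genes passed that filter.

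Astrocytes take up glutamate from the synaptic cleft, couple to each other through gap junctions and contact blood vessels with endfeet that are rich in water channels. After injury, in disease and with age they become reactive, a state in which the intermediate filament proteins GFAP and vimentin and the secreted protease inhibitor encoded by Serpina3n are commonly increased. Several of these genes are not restricted to astrocytes, since vimentin is also made by ependymal, endothelial and meningeal cells and S100b by some oligodendrocytes.

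Between 29654553 and 38179496 reads per library fell on genes, so counting error was small for genes of this abundance, and the spread between libraries was the limit. The libraries differed in the tissue they held. In CON 1, CON 3, PQQ-H 1 and PQQ-H 2 the 15 striatum markers summed to between 1359 and 3408 FPKM, against 39.8 to 183 FPKM in the other 8 libraries, and the 15 hippocampal neuron markers summed to 107 to 195 FPKM in those 4 libraries against 252 to 572 FPKM in the others. RNA of the choroid plexus, the epithelium that makes cerebrospinal fluid, separated CON from both PQQ groups: its 20 markers summed to 333 to 740 FPKM in CON, 70.3 to 135 FPKM in PQQ-L and 59.4 to 82.6 FPKM in PQQ-H. No marker of these lists was at 0 in all libraries of a group. Of the 19 choroid plexus markers tested, 14 were called lower at the lower dose and 16 at the higher dose, beside 0.471% and 0.819% of all genes. Some, such as Krt8 (mean 6.90 FPKM in CON, 0.206 in PQQ-L and 0.0164 in PQQ-H), passed the filter of 0.5 FPKM only through CON. Such genes could only come out lower in PQQ, so the filter fixed the direction of their calls. The part of either tissue in the results that follow was not tested except where a value is given.

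Slc1a2 had the highest level of the 10 genes, with a mean of 200.6 FPKM over 12 libraries, and Sox9 the lowest with 7.11 FPKM. Between them the means were 94.9 FPKM for S100b, 85.7 for Slc1a3, 66.5 for Gja1, 51.9 for Gfap, 29.8 for Vim, 19.2 for Serpina3n, 16.4 for Aldh1l1 and 15.0 for Aqp4. Some neighbours in this order did not differ beyond their spread. S100b exceeded Slc1a3 in 5 of 12 libraries, Serpina3n exceeded Aldh1l1 in 7 and Aldh1l1 exceeded Aqp4 in 5. Slc1a3 exceeded Gja1 in all 12 libraries, and so did Aqp4 over Sox9, the only neighbouring pair whose ranges did not overlap. Serpina3n varied most, with its highest library 5.85 times its lowest, followed by Vim with 2.81 times, whereas Sox9 varied 1.61 times and Slc1a2 1.65 times.

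**Figure D1:**
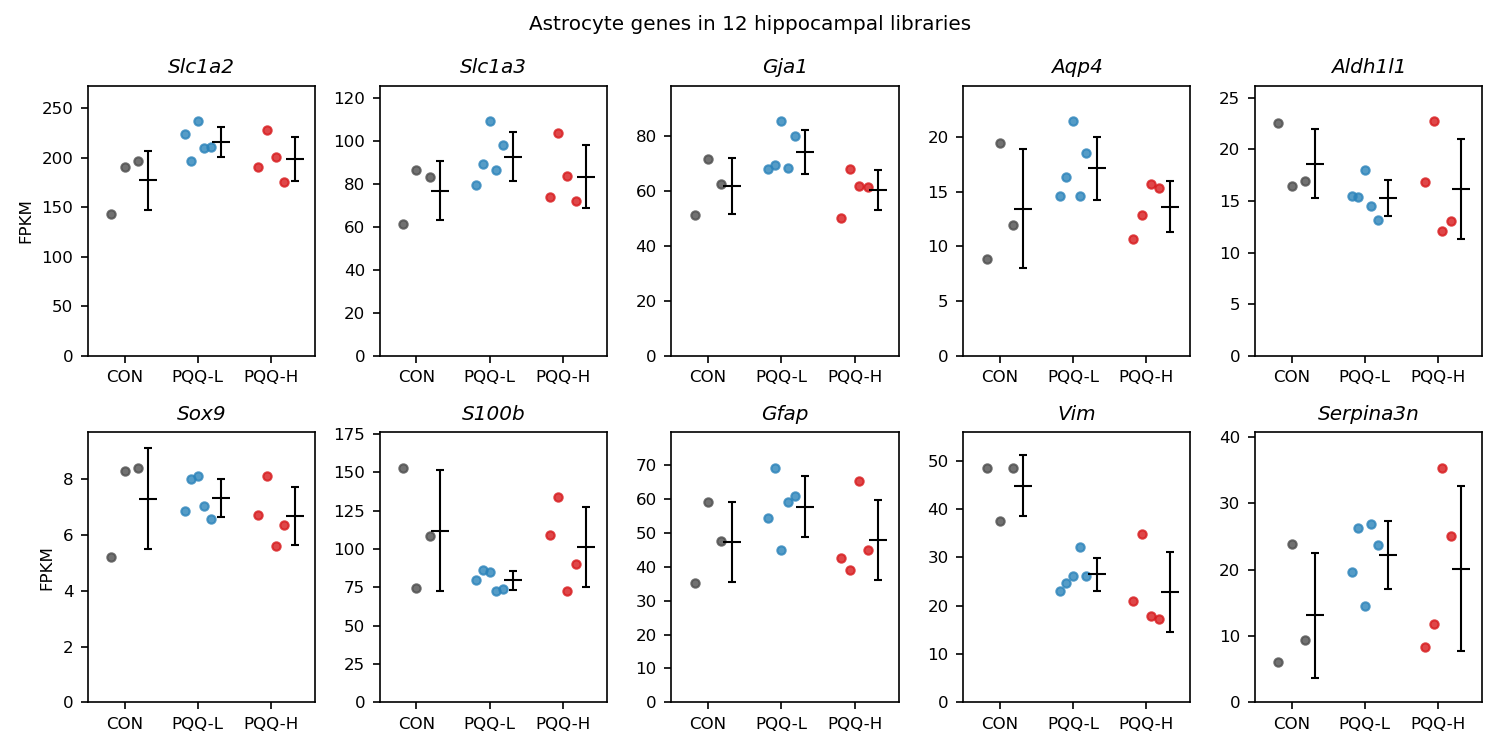
Level of each of the 10 genes in FPKM (vertical axes from 0) in the libraries of CON (grey, n = 3), PQQ-L (blue, n = 5) and PQQ-H (red, n = 4), with 1 point per library and the group mean and SD in black. The 9 PQQ libraries lie below the 3 CON libraries for Vim, while the groups overlap for most other genes.

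Of the 10 genes, 1 was called, in PQQ-H vs. CON. Vim was lower in PQQ-H than in CON by 1.03 on the log2 scale, and none of the genes was called for the lower dose or between the doses. Of all genes tested, 0.819% were called in PQQ-H vs. CON, 0.471% for PQQ-L and 0% between the doses. Before adjustment, limma gave a p below 0.05 for 2 of the 10 genes in PQQ-L vs. CON, beside 20.5% of all genes. The same held for 1 of 10 genes with the higher dose, beside 9.73%, and for 1 of 10 between the doses, beside 8.15%. A voom fit on the recovered reads also called 0, 1 and 0 of the 10 genes in these 3 comparisons. It was 1 of only 4 among 28 alternative settings that kept the Vim call. The fitted log2 fold change was above 0 for 7 genes and below 0 for 3 in PQQ-L vs. CON, with a median of 0.27 beside -0.03 over all genes tested. That median did not keep its direction, since it was 0.04 with the striatal score as a covariate, -0.08 without the 4 libraries rich in striatal RNA, and 0.11 at the lowest without any 1 library. In PQQ-H vs. CON it was above 0 for 5 and below 0 for 5, with a median of 0.00 beside -0.03. Both comparisons use the same 3 CON libraries.

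**Figure D2:**
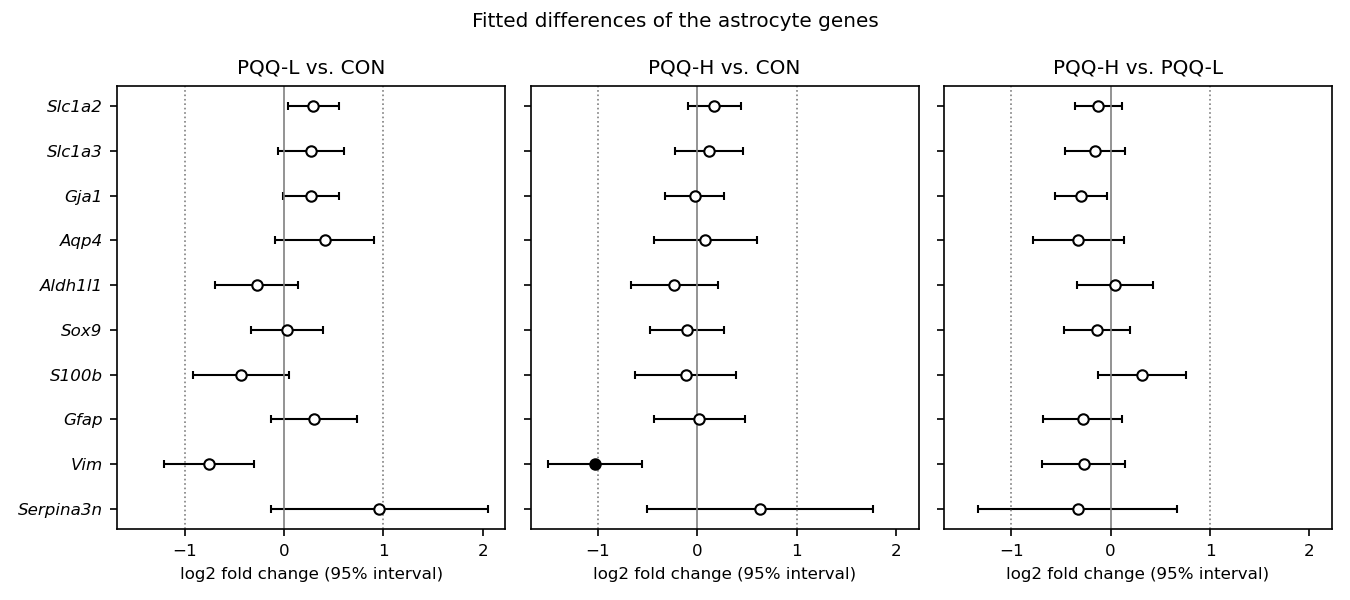
Fitted log2 fold change of each gene (horizontal axes) with its 95% interval, for each dose against CON and for the doses against each other, where a filled point was called and dotted lines mark -1 and 1. Vim in PQQ-H vs. CON, at -1.03, is the filled point, and Serpina3n has the widest intervals.

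Vim encodes vimentin, an intermediate filament protein of immature and reactive astrocytes. Its levels were 48.6, 37.6 and 48.4 FPKM in CON. In PQQ-L they were 23.1, 24.8, 26.2, 32.2 and 26.2 FPKM, and in PQQ-H 21.0, 34.9, 17.9 and 17.3 FPKM. Every PQQ library was below every CON library, and PQQ-H 2 was closest to them. Without such overlap were 5.72% of all genes on the lower side in PQQ-H vs. CON and 7.66% in PQQ-L vs. CON. The mean was 44.9 ± 6.28 FPKM in CON (SD, n = 3), 26.5 ± 3.43 in PQQ-L (n = 5) and 22.8 ± 8.26 in PQQ-H (n = 4). Relative to CON, the log2 fold change was -1.03 ± 0.22 (SE) in PQQ-H, with a limma adjusted p of 0.0488, and -0.76 ± 0.21 in PQQ-L, with an adjusted p of 0.159 that did not pass. Between the doses the difference was -0.27 with a 95% interval of -0.69 to 0.15.

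The Vim call stood at the threshold. Of 28 alternative settings 4 kept it, and the log2 fold change stayed between -1.25 and -0.92 when any 1 library was left out, with adjusted p from 0.00186 to 0.224. Libraries whose name starts with L gave -0.85 (3 PQQ-H against 2 CON libraries) and those whose name starts with R gave -1.49 (1 against 1), where the meaning of the letters was not given. Vim moved with the choroid plexus, ependyma and meninges markers, though not with these alone. The 14 ependyma markers, from the ciliated cells that line the ventricles, summed to 119 to 164 FPKM in CON, 65.4 to 105 FPKM in PQQ-L and 47.1 to 79.2 FPKM in PQQ-H, and the 14 meninges markers to 71.2 to 112, 37.9 to 82.9 and 28.5 to 53.2 FPKM. Of the 13 ependyma markers tested, 4 were called lower in PQQ-H vs. CON (Foxj1, Tekt1, Dynlrb2 and Cfap126, all genes of motile cilia) and 0 in PQQ-L vs. CON. The shares of all genes called were 0.819% and 0.471%. With the choroid plexus score (the mean log2 level of its markers) as a covariate, the log2 fold change of Vim in PQQ-H vs. CON was -0.28 with a limma adjusted p of 1, where over all alternatives that leave out no single library the adjusted p ran from 0.0223 to 1. That score separates CON from PQQ, so the covariate and the treatment could not be told apart. Correlations among the 9 PQQ libraries alone, 2 of them rich in striatal RNA, are a description across libraries that differ in tissue. There Vim had a Pearson r of 0.81 with the ependyma score and 0.44 with the choroid plexus score. Its r was 0.62 with the score of oligodendrocyte precursor markers, 0.61 with the endothelium score and 0.37 with the meninges score. With Sox9, Slc1a3, Slc1a2 and Aldh1l1 its r was 0.72, 0.69, 0.68 and 0.66. It was 0.47 with Gja1, 0.27 with S100b and 0.03 with Aqp4, and below 0 with Gfap (-0.14) and Serpina3n (-0.27). The striatal score as a covariate left the log2 fold change at -0.95.

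**Figure D3:**
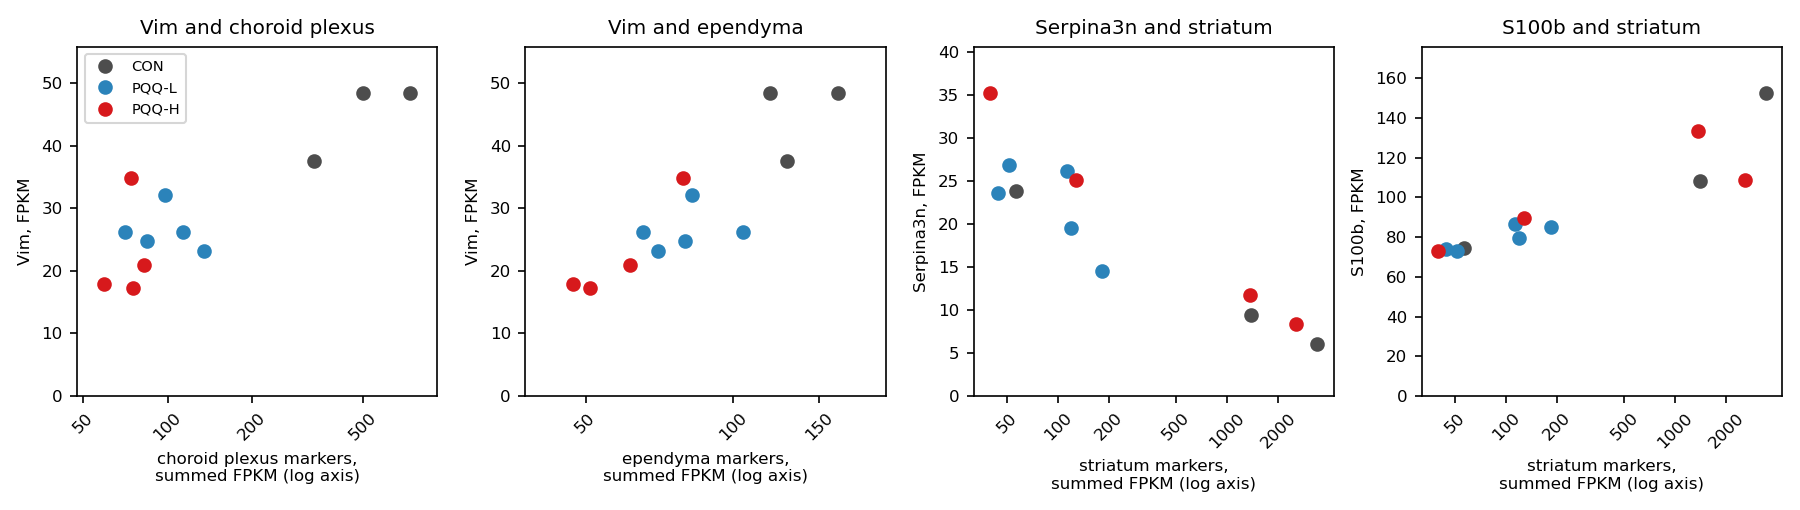
Level of Vim, Serpina3n and S100b in FPKM (vertical axes from 0) against the summed FPKM of choroid plexus, ependyma or striatum markers (horizontal log axes), with 1 point per library of CON (grey), PQQ-L (blue) and PQQ-H (red). The 3 CON libraries stand apart in choroid plexus and ependyma RNA, and the 4 libraries with 1359 FPKM or more of striatum markers have the lowest Serpina3n and the highest S100b.

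The promoter of Vim is shown because Vim was the called gene. The 250 bases before its start, from the RefSeq promoter table on build GRCm38.p6, lie at chr2:13574061-13574310 (plus strand) and read 5′ to 3′ as follows, with motif matches in capitals. The search covered both strands and 32851 mouse promoters of this length. The STAT motif searched was TTCNNNGAA, found at least once in 7.02% of those promoters. The AP-1 motif was TGANTCA, found in 6.75% of them. The TATA box was taken as TATAAA, found in 12.4% of them. The GC box was taken as GGGCGG, found in 32.7% of them. The capitals in Vim are a TATA box that begins 32 bases before the start. This table held 8 of the 10 genes, and Aqp4 and Sox9 were not among them.
Vim promoter: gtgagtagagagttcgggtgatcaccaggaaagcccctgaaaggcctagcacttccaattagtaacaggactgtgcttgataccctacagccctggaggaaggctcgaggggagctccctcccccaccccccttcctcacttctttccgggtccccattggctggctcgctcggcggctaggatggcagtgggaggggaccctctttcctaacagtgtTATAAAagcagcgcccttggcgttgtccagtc

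Gfap encodes the main intermediate filament protein of astrocytes and did not follow Vim. Its levels were 35.3, 59.0 and 47.7 FPKM in CON, 54.5, 69.2, 44.9, 59.2 and 60.7 FPKM in PQQ-L, and 42.6, 39.0, 65.3 and 44.9 FPKM in PQQ-H. The 3 groups overlapped widely, with the lowest library in CON and the highest in PQQ-L. The log2 fold change was 0.30 with a 95% interval of -0.13 to 0.74 in PQQ-L vs. CON (limma adjusted p = 0.333) and 0.02 with an interval of -0.44 to 0.48 in PQQ-H vs. CON (adjusted p = 0.981). Of the other intermediate filament genes and their linkers, 11 of 12 were tested and 0 called by limma in any comparison. In PQQ-H vs. CON 3 had an unadjusted p below 0.05, all lower, where 7.88% of all genes were lower at that p. Among these was Lmna, encoding the nuclear lamins A and C, at -0.42 (adjusted p = 0.176).

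Serpina3n, a secreted serine protease inhibitor that is among the strongest markers of reactive astrocytes, differed more between libraries of 1 group than between groups. It was at 6.04, 23.8 and 9.40 FPKM in CON and at 8.32, 11.8, 35.3 and 25.1 FPKM in PQQ-H, while PQQ-L had 19.6, 26.2, 14.6, 26.9 and 23.6 FPKM. CON 1, CON 3, PQQ-H 1 and PQQ-H 2 were the lowest libraries, from 6.04 to 11.8 FPKM, and the other 8 lay between 14.6 and 35.3 FPKM. These 4 are the libraries with the most striatal RNA. The group means were 13.1 ± 9.43 FPKM (SD, n = 3), 22.2 ± 5.12 (n = 5) and 20.1 ± 12.4 (n = 4) in CON, PQQ-L and PQQ-H. The log2 fold change of 0.96 in PQQ-L vs. CON had a 95% interval of -0.13 to 2.05 and did not pass (limma adjusted p = 0.261). With CON 2 left out it became 1.51 and was called (adjusted p = 0.0469), and with the striatal score as a covariate it was -0.03, while the adjusted p ranged from 0.0469 to 1 over all alternatives. In PQQ-H vs. CON the value was 0.63, with an interval of -0.51 to 1.77. The near-identical paralogs that could share reads were low, with at most 1.74 FPKM for Serpina3k and 1.24 FPKM for Serpina3g in any library.

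S100b, a calcium-binding protein of astrocytes, was highest in the libraries where Serpina3n was lowest. Over the 8 libraries with little striatal RNA their Pearson r was -0.41. It was at 153, 74.4 and 108 FPKM in CON, at 79.7, 86.6, 84.9, 72.8 and 73.8 FPKM in PQQ-L and at 109, 134, 72.8 and 89.9 FPKM in PQQ-H. The 4 libraries with the most striatal RNA held the 4 highest values, from 108 to 153 FPKM, and the other 8 ranged from 72.8 to 89.9 FPKM. Its log2 fold change in PQQ-L vs. CON was -0.43 (95% interval -0.92 to 0.05, limma adjusted p = 0.258). Without those 4 libraries, which leaves 1 CON library, it was 0.09. S100b overlaps Dip2a on the opposite strand. Whether the reads were counted by strand was not given in the sources used here, so how reads of the overlap were assigned is not known. The same holds for Slc1a2 with Gm13872 and for Aldh1l1 with Gm15756. Of the 12 genes of the S100 family, 9 were tested and 0 called by limma. In PQQ-L vs. CON 2 had an unadjusted p below 0.05, beside 20.5% of all genes.

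The promoters of Gfap, Serpina3n and S100b are shown because the 4 libraries rich in striatal RNA had the lowest Serpina3n and the highest S100b, and Gfap was the gene with the highest r with Serpina3n over the other 8. On GRCm38.p6 the promoters of Gfap, Serpina3n and S100b lie at chr11:102897201-102897450 (minus strand), chr12:104406458-104406707 (plus strand) and chr10:76253586-76253835 (plus strand). None of the 4 motifs named for Vim had a match in these windows, which says only that those letters are not there.
Gfap promoter: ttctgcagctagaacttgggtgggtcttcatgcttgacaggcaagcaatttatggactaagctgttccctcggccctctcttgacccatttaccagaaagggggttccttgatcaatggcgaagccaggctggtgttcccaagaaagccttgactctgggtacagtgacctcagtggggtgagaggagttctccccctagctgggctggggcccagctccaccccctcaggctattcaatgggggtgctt
Serpina3n promoter: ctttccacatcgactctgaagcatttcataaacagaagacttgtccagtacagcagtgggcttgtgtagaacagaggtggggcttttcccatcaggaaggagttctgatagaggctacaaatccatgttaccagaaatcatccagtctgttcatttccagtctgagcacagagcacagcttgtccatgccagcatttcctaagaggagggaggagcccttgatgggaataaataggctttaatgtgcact
S100b promoter: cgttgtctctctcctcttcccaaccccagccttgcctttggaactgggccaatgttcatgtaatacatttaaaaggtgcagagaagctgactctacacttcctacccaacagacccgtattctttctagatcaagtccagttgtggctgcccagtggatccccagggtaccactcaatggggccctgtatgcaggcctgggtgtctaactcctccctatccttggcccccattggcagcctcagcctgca

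Slc1a2 and Slc1a3 encode the glutamate transporters GLT-1 and GLAST, which clear glutamate from the synapse. Slc1a2 was at 143, 191 and 197 FPKM in CON, at 225, 197, 237, 211 and 211 FPKM in PQQ-L, and at 191, 228, 201 and 175 FPKM in PQQ-H. The PQQ-L libraries were all above the CON libraries, although the nearest were PQQ-L 2 at 197.3 and CON 3 at 197.2 FPKM, and 2.96% of all genes had no overlap on this side. The difference of 0.30 on the log2 scale (95% interval 0.04 to 0.55) did not pass correction (limma adjusted p = 0.234). Slc1a3 was at 61.4, 86.5 and 83.2 FPKM in CON, at 79.8, 89.6, 109, 86.6 and 98.1 FPKM in PQQ-L and at 73.9, 104, 84.1 and 72.2 FPKM in PQQ-H, and its log2 fold changes were 0.27 (adjusted p = 0.273) and 0.12 (adjusted p = 0.849). CON 1 was the lowest library for both transporters. The FPKM ratio of Slc1a2 to Slc1a3 ran from 2.15 (PQQ-L 5) to 2.82 (PQQ-L 1) over the 12 libraries. The mean of its log2 value was 1.20 ± 0.05 (SD, n = 3) in CON, 1.23 ± 0.17 (n = 5) in PQQ-L and 1.26 ± 0.10 (n = 4) in PQQ-H, with two-sided exact permutation p = 0.964 and 0.343 for the doses against CON. Of the 7 genes of the transporter family, 6 were tested and 0 called by limma. In PQQ-L vs. CON 3 of them, Slc1a2 included, had an unadjusted p below 0.05, beside 20.5% of all genes. Of these 1 was lower and 2 were higher. Slc1a5, a neutral amino acid transporter of the family, had the smallest p there, with -1.39 ± 0.54 (SE, adjusted p = 0.233) at a mean of 1.88 FPKM in CON and 0.581 FPKM in PQQ-L.

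Gja1 encodes connexin 43, the main gap junction protein of astrocytes. It was at 51.1, 71.5 and 62.6 FPKM in CON, 68.1, 69.5, 85.3, 68.3 and 80.0 FPKM in PQQ-L and 50.2, 68.0, 61.9 and 61.3 FPKM in PQQ-H. All PQQ-H libraries were below all PQQ-L libraries, as for 3.33% of all genes. The difference between the doses was -0.30 (95% interval -0.56 to -0.04, limma adjusted p = 0.580), and those against CON were 0.27 in PQQ-L and -0.03 in PQQ-H. Gjb6, encoding the other astrocyte connexin (connexin 30), differed by -0.28 between the doses with the same adjusted p of 0.580. Of the 10 connexin genes, 9 were tested and 0 were called by limma. At an unadjusted p below 0.05 were 1 and 2 for the lower and the higher dose, and 2 between the doses. The shares of all genes at that p were 20.5%, 9.73% and 8.15%.

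Aqp4, the water channel of the endfeet, was at 8.89, 19.4 and 11.9 FPKM in CON, 14.6, 16.4, 21.4, 14.6 and 18.6 FPKM in PQQ-L and 10.7, 12.9, 15.7 and 15.3 FPKM in PQQ-H. As for Serpina3n, the 4 libraries with the most striatal RNA were the lowest, from 8.89 to 12.9 FPKM, and the other 8 had 14.6 to 21.4 FPKM. The log2 fold changes were 0.41 in PQQ-L (limma adjusted p = 0.276) and 0.08 in PQQ-H (adjusted p = 0.931). Aqp1, the water channel of the choroid plexus, was called lower in both, by -4.01 ± 0.36 (SE, limma adjusted p = 3.63e-04) and -4.74 ± 0.37 (adjusted p = 1.02e-04). Its mean was 5.78 FPKM in CON, 0.247 in PQQ-L and 0.101 in PQQ-H. It passed the filter of 0.5 FPKM only through CON, so it could only come out lower in PQQ. Of the 10 genes of the complex that anchors Aqp4 in the endfoot membrane or shares the endfoot, 10 were tested and 0 called by limma. The smallest p against CON were those of Dmd, encoding dystrophin, with 0.73 in PQQ-L (adjusted p = 0.214), and Kcnj10, encoding the potassium channel Kir4.1, with -0.37 in PQQ-H (adjusted p = 0.442).

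Aldh1l1, a folate-metabolizing enzyme used as a pan-astrocyte marker, and Sox9, a transcription factor of the astrocyte lineage, passed no test. Aldh1l1 was at 22.5, 16.4 and 16.9 FPKM in CON, 15.5, 15.3, 18.0, 14.6 and 13.2 FPKM in PQQ-L and 16.8, 22.7, 12.1 and 13.1 FPKM in PQQ-H. Sox9 had 5.22, 8.30 and 8.42 FPKM in CON, 6.87, 8.03, 8.12, 7.06 and 6.59 FPKM in PQQ-L and 6.72, 8.11, 5.61 and 6.35 FPKM in PQQ-H. The groups overlapped for both genes. The log2 fold changes of Aldh1l1 were -0.27 for PQQ-L (limma adjusted p = 0.354) and -0.23 for PQQ-H (adjusted p = 0.769), and those of Sox9 were 0.03 and -0.11 (adjusted p = 0.908 and 0.874). Of 16 astrocyte transcription factors, Sox9 included, 16 were tested and 0 called by limma, with 5 at an unadjusted p below 0.05 in PQQ-L vs. CON, 1 of them lower and 4 higher, where 20.5% of all genes had such a p. Id3, an inhibitor of DNA binding, was the lower one at -0.82 (adjusted p = 0.190).

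Gfap is used as a marker of reactivity and Aldh1l1 as a general astrocyte marker, and their ratio was followed by library. The FPKM ratio of Gfap to Aldh1l1 was 1.57, 3.60 and 2.81 in CON, 3.52, 4.51, 2.50, 4.07 and 4.62 in PQQ-L and 2.53, 1.72, 5.42 and 3.43 in PQQ-H. The 4 libraries rich in striatal RNA had 1.57 to 2.81, and 7 of the other 8 had 3.43 to 5.42. Its mean was 2.66 ± 1.02 (SD, n = 3), 3.84 ± 0.87 (n = 5) and 3.27 ± 1.59 (n = 4). The difference in mean log2 ratio was 0.58 in PQQ-L vs. CON (two-sided exact permutation p = 0.179, smallest possible 0.0357) and 0.25 in PQQ-H vs. CON (p = 0.743, smallest possible 0.0571, which cannot pass 0.05). Over the 6 tests of both ratios, the adjusted permutation p was between 0.825 and 0.964.

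The 10 genes did not vary as 1 block across the libraries. Because the 4 libraries rich in striatal RNA formed a cluster of their own, correlations between the genes are given over the other 8 libraries as a description. These still differ in tissue, since their hippocampal neuron markers summed to 252 to 572 FPKM and CON 2 had 333 FPKM of choroid plexus markers against at most 135 in the rest. The Pearson r of log2(FPKM + 0.1) was above 0 for 27 of 45 pairs and below 0 for 18, with a median of 0.26. Slc1a3, Gja1 and Aqp4 varied together, with r of 0.92 for Slc1a3 and Gja1, 0.81 for Gja1 and Aqp4 and 0.78 for Slc1a3 and Aqp4. Aldh1l1 and Sox9 had an r of 0.91. Serpina3n ran against 8 of the other 9 genes, with the lowest r of -0.80 with Aldh1l1 and -0.74 with Gja1, and with Gfap alone its r was above 0, at 0.66. Over the same 8 libraries Serpina3n had an r of 0.95 with the hippocampal neuron score and -0.81 with the striatal score, and Aldh1l1 had -0.89 with the hippocampal neuron score and 0.96 with the endothelium score.

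**Figure D4:**
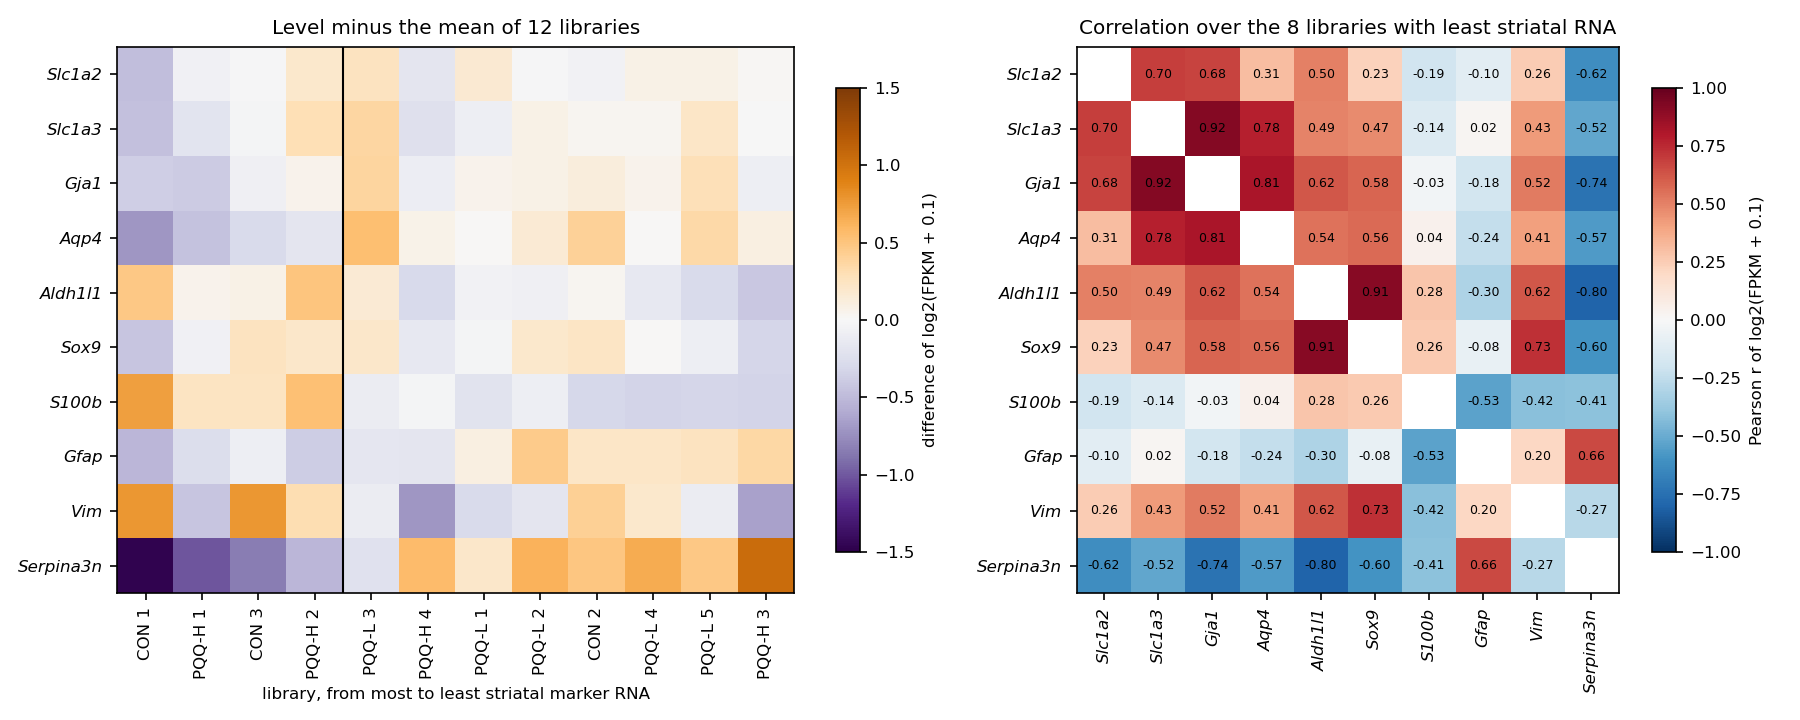
Left, the level of each gene in each library minus its mean over 12 libraries (colour, difference of log2(FPKM + 0.1)), with libraries ordered from most to least striatal marker RNA and a line after the first 4. Right, Pearson r between the genes over the 8 libraries with the least striatal RNA, where Slc1a3, Gja1 and Aqp4 form a block and Serpina3n is negative with every gene but Gfap.

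The promoters of Slc1a3 and Gja1 are shown for the pair with the highest r. On GRCm38.p6 they lie at chr15:8710808-8711057 (minus strand) and chr10:56377050-56377299 (plus strand). In capitals, Slc1a3 holds a TATA box that begins 161 bases before the start on the opposite strand, a GC box at 145 and a STAT motif at 96 bases before it, and Gja1 holds an AP-1 motif at 19 bases before it. The windows share none of these matches.
Slc1a3 promoter: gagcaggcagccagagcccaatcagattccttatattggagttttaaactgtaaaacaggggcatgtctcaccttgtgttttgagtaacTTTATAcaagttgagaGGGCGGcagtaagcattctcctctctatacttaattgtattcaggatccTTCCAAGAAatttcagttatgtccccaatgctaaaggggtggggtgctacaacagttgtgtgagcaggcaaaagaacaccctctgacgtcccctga
Gja1 promoter: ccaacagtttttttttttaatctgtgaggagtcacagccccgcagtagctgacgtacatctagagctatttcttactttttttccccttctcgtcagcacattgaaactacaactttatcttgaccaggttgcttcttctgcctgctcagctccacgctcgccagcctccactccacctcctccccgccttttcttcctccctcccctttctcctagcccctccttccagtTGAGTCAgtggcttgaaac

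The genes most like each member over the 12 libraries also differed between members. Serpina3n was closest to Nsmf, Ptprj and Nell2, with Pearson r of 0.995, 0.993 and 0.992, and these kept r of 0.970, 0.982 and 0.986 over the 8 libraries with little striatal RNA. S100b was close to Rps6, which encodes a protein of the small ribosomal subunit, and to Rpl37rt, with r of 0.977 and 0.975 over 12 libraries and 0.902 and 0.944 over the 8. Vim was closest to Plp2, Galk1 and Hspb8 (r of 0.948, 0.946 and 0.946, and 0.881, 0.858 and 0.877 over the 8). Aqp4 was closest to Eps8, Tmem255a and Cdh2, with r of 0.983, 0.977 and 0.977. For Gja1 the nearest was Kcnj16, an inwardly rectifying potassium channel, at 0.958, ahead of Caprin2 and Trhr. Aldh1l1 was nearest to Ddah1 (0.967), Aldh9a1 and Gnai2, and Sox9 to Prdm16os (0.922), Arhgap29 and Unc119b. For Gfap the nearest genes were Mtrr, Mapk7 and Nol10 (0.945, 0.943 and 0.941). Slc1a2 was nearest to Kifc2, R3hdm1 and Pak6 (0.946, 0.919 and 0.915) and Slc1a3 to Wdr13, Scrg1 and Zfp366 (0.920, 0.906 and 0.905). The r over 12 libraries spans the 2 clusters of libraries.

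A wider list of 40 homeostatic astrocyte genes, none of them among the 10, was tested in full and none was called by limma in any comparison. In PQQ-L vs. CON 7 had an unadjusted p below 0.05 and in PQQ-H vs. CON 8, all lower, where 11.6% and 7.88% of all genes were lower at that p. The median log2 fold change was -0.12 in both, beside -0.03 over all genes. The gene with the smallest p was Slc7a10, encoding the serine and glycine transporter Asc-1, with -0.60 ± 0.12 (SE, adjusted p = 0.0536) in PQQ-L and -0.70 ± 0.12 (adjusted p = 0.0244) in PQQ-H, which missed the fold threshold. Its mean was 15.2 FPKM in CON, 9.94 in PQQ-L and 9.28 in PQQ-H. Slc38a3, a glutamine transporter that exports glutamine from astrocytes, was at -0.53 and -0.52 (adjusted p = 0.166 and 0.210), and Slco1c1, a thyroid hormone transporter, at -0.58 in PQQ-H (adjusted p = 0.169).

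Lists of other reactive astrocyte genes held none of the 10, so Gfap, Vim and Serpina3n were left out of them. Those 3 were at 0.30, -0.76 and 0.96 in PQQ-L vs. CON, and Vim was called in PQQ-H vs. CON. Of the listed genes, 6 of 10 pan-reactive, 11 of 11 A1-type and 6 of 12 A2-type were tested, and none was called by limma in any comparison. In PQQ-L vs. CON the median log2 fold changes were -0.69, -0.58 and -0.55 for the 3 lists, with 2, 5 and 3 genes at an unadjusted p below 0.05, beside 20.5% of all genes. Of these 10 only Ptgs2, encoding cyclooxygenase 2, was higher, at 1.88 ± 0.74 (SE, adjusted p = 0.234). In PQQ-H vs. CON the medians were -0.54, -0.54 and -0.20, with 4, 4 and 2 genes at that p beside 9.73% of all genes, and 1 of the A1-type genes among them was higher. The smallest adjusted p were those of Cd44, a hyaluronan receptor, at -1.75 ± 0.40 (adjusted p = 0.0711, mean 1.10 FPKM in CON and 0.254 in PQQ-H), and of Tm4sf1, a membrane protein of endothelium that was also on the list of ependyma markers, at -0.85 ± 0.19 (adjusted p = 0.0756). H2-D1, a class I histocompatibility gene, was at -0.81 and -0.80 (adjusted p = 0.223 and 0.401). Many genes of these lists are also expressed by vascular, meningeal or ventricular cells. Of 12 endothelium markers tested 0 were called by limma at either dose. Of 12 meninges markers 1 was called lower with PQQ-L and 3 with PQQ-H, beside 0.471% and 0.819% of all genes. The 3 included Igf2, which was also on the list of choroid plexus markers. They also included Col1a1 (mean 1.27 FPKM in CON, 0.476 in PQQ-L and 0.337 in PQQ-H), which passed the filter of 0.5 FPKM only through CON and could only come out lower. When CON 2 was left out, which leaves the 2 CON libraries rich in striatal RNA, 7 reactive genes were called in PQQ-L vs. CON, beside 865 of all 13777 genes tested there. In PQQ-H vs. CON 1 was called without PQQ-L 5, beside 92 of 13816 genes.

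Of 10 genes commonly listed as higher in aged astrocytes, 8 were tested and 0 called by limma. Over all genes, 11.6% in PQQ-L and 7.88% in PQQ-H were lower than in CON at an unadjusted p below 0.05. Of the 8 genes, 2 were lower at that p in each comparison with CON. These were Bmp6, a bone morphogenetic protein, at -1.13 and -1.20 (limma adjusted p = 0.107 and 0.0872), and C3, the third complement component, at -1.22 and -1.74 (adjusted p = 0.229 and 0.169). C3 averaged 1.32 FPKM in CON, 0.550 in PQQ-L and 0.344 in PQQ-H, so it passed the filter of 0.5 FPKM largely through CON. Of 16 radial glia and neural stem cell genes, 15 were tested, and Vim was the 1 gene called, in PQQ-H vs. CON. After Vim, Lfng, which modifies Notch receptors, had the smallest p in PQQ-L vs. CON at -0.25 (adjusted p = 0.257).

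**Figure D5:**
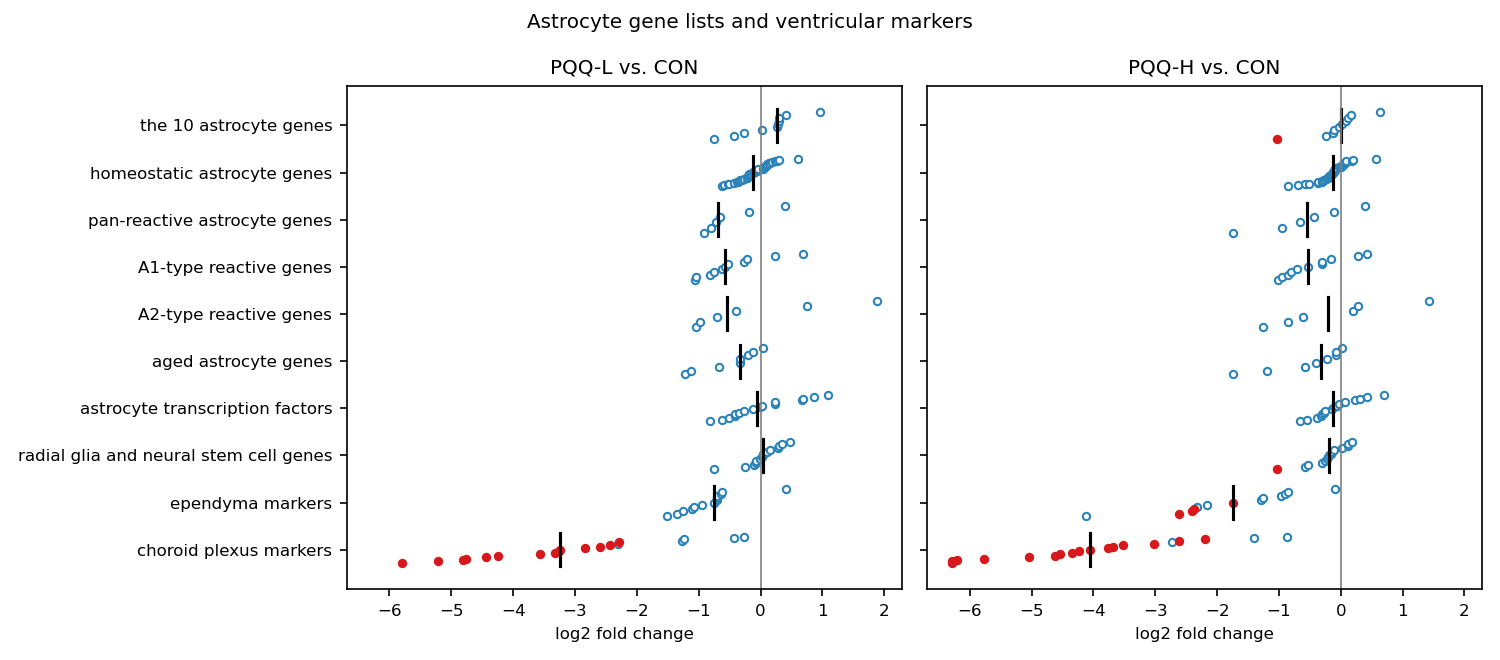
Fitted log2 fold change (horizontal axes) of each tested gene of the astrocyte lists and of the ependyma and choroid plexus markers for each dose against CON, with called genes in red, others open, and the list median as a black bar. Vim, at -1.03, is the called gene among the astrocyte lists, while 14 and 16 choroid plexus markers and 0 and 4 ependyma markers were called.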

How the data were processed

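The authors isolated RNA with TRIzol and prepared libraries with a VAHTS kit. Their reads were cleaned by fastp, aligned by HISAT2 and assigned to genes by HTSeq-count, and they deposited 1 table of FPKM values per gene, already divided by gene length and library total. The submitters' processing notes name genome build mm39. Versions, annotation and the use of strand are not given in the sources used here. Reads were recovered from the FPKM, since for 100% of the 25563 genes present in 2 or more libraries the values were whole multiples of 1 read within 0.02 reads. Libraries of 1 group were not duplicates, with a chi-square of at least 20.3 per degree of freedom in 19 pairs. The labels do not tie libraries to animals, so p-values measure the spread between these libraries, which may be technical in part.

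Groups were taken from the sample titles. limma 3.58.1 (R 4.3.3) was run on log2(FPKM + 0.1) with a variance trend, in 1 fit of 12 libraries, and the thresholds are those the study states. Fold changes on this scale understate those of low genes. The table holds FPKM, so limma on the log scale took the place of the study's count test, and voom on the recovered reads was an alternative. Ratios of 2 genes were compared with two-sided exact permutation tests. Plots were drawn with matplotlib 3.10.9, and the permutation tests ran in scipy 1.17.1 under Python 3.11.15. The members and the 27 gene lists were chosen with earlier results of these data known. Named were all 10 members, each called gene of another list or otherwise up to 3 with the smallest p per comparison, of which the text gives some, and the 3 genes with the highest r with each member, of which 1 is not reported here. Overlapping genes were read from GENCODE M21 and promoters from a RefSeq table, both on GRCm38, so no position from them was joined to the FPKM.

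The 15 alternatives varied the pseudocount (1 and 0.01), the filter (any gene above 0, or 1 FPKM on average), the scaling (median of ratios, TPM, quantiles), the groups fitted, the trend, library weights and covariates (the letter that opens a library's name, a choroid plexus score, a striatal score), took the replicate number as a block, or used voom on the recovered reads. Each of the 12 libraries was also left out in turn. Leaving out the 4 libraries with the most striatal RNA was chosen after seeing the data.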

Additional observations from a re-analysis of the deposited data

How the results depend on the processing

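Vim was the 1 gene called in PQQ-H vs. CON, and the call was kept by TPM, by voom on recovered reads, without CON 2 and without PQQ-H 2, whereas leaving out any other library ended it. The other 14 alternatives that leave out no single library called 0 of the 10 genes there. Leaving out 1 library gave 0 to 1 called genes in each comparison with CON, where the 1 gene of PQQ-L vs. CON was Serpina3n without CON 2. With the replicate number as a block, the log2 fold change of Vim was -1.02 (limma adjusted p = 0.374). The numbers do not pair the libraries, since same-numbered libraries deviated with correlations of -0.62 to 0.72 over the 3 pairs of PQQ-H vs. CON, -0.06 to 0.22 over the 3 of PQQ-L vs. CON and -0.46 to 0.34 over the 4 between the doses. Under the block Aldh1l1 in PQQ-H vs. PQQ-L moved to -0.011.

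The median over the 10 genes in PQQ-L vs. CON was 0.037 with the striatal score as a covariate, -0.077 without the 4 libraries richest in striatal RNA, and 0.11 to 0.36 without any 1 library. For the higher dose it was 0.25 with the choroid plexus score, -0.18 without the 4 libraries and -0.12 to 0.14 without any 1 library, and between the doses -0.063 with the choroid plexus score. The reactive lists had 0 to 7 called genes without any 1 library for PQQ-L (7 without CON 2, where 865 of 13777 genes were called) and 0 to 1 for PQQ-H (1 without PQQ-L 5), and 1 for either dose with all genes above 0 and 1 for PQQ-L with voom. The homeostatic list stayed at 0 in every alternative.

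Most changes of direction were among log2 fold changes that passed no test, and their cause was not tested. With the choroid plexus score as a covariate, PQQ-L vs. CON gave -0.37 for Gfap, -0.77 for Serpina3n, 0.093 for Aldh1l1 and 0.0047 for S100b. With the same score PQQ-H vs. CON gave -0.85 for Gfap, -1.59 for Serpina3n, -0.14 for Aqp4, 0.24 for Aldh1l1, 0.44 for S100b, 0.25 for Gja1 and 0.63 for Sox9, and between the doses Slc1a2 was at 0.045 and Sox9 at 0.025. With the striatal score the low dose gave -0.0064 for Gfap, -0.030 for Serpina3n and 0.026 for Aldh1l1, the high dose -0.086 for Gfap, -0.034 for Aqp4 and 0.019 for S100b, and the doses differed by 0.32 for Serpina3n and -0.16 for Aldh1l1. Without the 4 libraries the low dose gave -0.046 for Gfap, -0.14 for Serpina3n, -0.20 for Aqp4, 0.092 for S100b and -0.18 for Sox9. The high dose then gave -0.12 for Gfap, -0.33 for Aqp4, 0.12 for S100b, -0.028 for Slc1a2 and -0.15 for Slc1a3, and the doses differed by 0.46 for Serpina3n and -0.28 for Aldh1l1. Gja1 in PQQ-H vs. CON was 0.040 with median-of-ratios scaling and 0.036 with array quality weights, and Aldh1l1 between the doses was -0.053 with those weights and -0.046 with TPM, a scaling that moved the median of all genes there from -0.02 to -0.11. Quantile normalization moved the ratio of Slc1a2 to Slc1a3 between the doses to -0.015.

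Without any 1 library, Sox9 ran from -0.19 to 0.15 for the low dose. For the high dose the ranges were -0.18 to 0.19 for Gfap, -0.18 to 0.38 for Aqp4, -0.38 to 0.14 for S100b, -0.037 to 0.21 for Slc1a3, -0.16 to 0.085 for Gja1 and -0.33 to 0.011 for Sox9. Between the doses they were -0.68 to 0.015 for Serpina3n and -0.14 to 0.17 for Aldh1l1. The log2 ratio of Gfap to Aldh1l1 ran from -0.086 to 0.52 for the high dose, and that of Slc1a2 to Slc1a3 from -0.045 to 0.052 for the low dose and from -0.0031 to 0.10 between the doses. With 3 CON libraries, differences within the intervals given for each gene could not be resolved, and depth was not the limit at 478 reads or more per gene and library.

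Over all genes tested, 65 were called for the low dose and 113 for the high dose against CON. These counts became 112 and 170 with all genes above 0, 42 and 68 at 1 FPKM or more on average, 17 and 31 with array quality weights (whose estimation stopped short of its convergence tolerance), 0 and 0 with the choroid plexus score, 23 and 48 under the replicate block, and 1 and 5 without the 4 libraries. PQQ-L vs. CON alone moved to 40 with the striatal score and 123 with voom, and PQQ-H vs. CON alone to 44 when only those groups were fitted. Without CON 1 they were 20 and 58, and without CON 3 they were 33 and 47. PQQ-L vs. CON gave 865 without CON 2, with 434 of them higher, and 43 without PQQ-L 1. PQQ-H vs. CON gave 68 without PQQ-H 3 and 67 without PQQ-H 4.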
